A study of Mus musculus with 6 samples.

Results

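The S phase and mitosis genes examined here were 46 of the 21887 protein-coding genes on the main mouse chromosomes. The rule for membership names the genes and uses no peak value. They comprised 18 replication genes, 19 mitosis genes and 9 transcription factors, E2f1 to E2f8 and Mybl2. A gene was called marked in a library when at least 1 base of an H3K4me3 peak lay within 1 kb either side of its start site.

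The study examined progenitor cells of the newborn mouse cochlea by chromatin immunoprecipitation with sequencing (ChIP-seq) against trimethylated lysine 4 of histone H3. The cochleae came from C57BL/6 mice of postnatal day 0 to 3 that carried the Lgr5-EGFP-creERT2 allele, in which the Lgr5 locus drives green fluorescent protein and an inducible Cre, and cells of both groups were sorted for that fluorescence. The neomycin group was exposed to this aminoglycoside antibiotic, which is toxic to hair cells, for 12 h, and the other group was left untreated. Each group had 2 H3K4me3 libraries and 1 input library. The tissue was pooled from mice of either sex and had been cultured with growth factors that include EGF and bFGF. The labels do not say whether replicates came from separate cultures, so the spread given here is that between libraries and may be technical. The inputs were not analysed here.

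H3K4me3 sits at the start sites of genes that are active or poised for transcription, mostly in promoters rich in CpG dinucleotides. Genes of S phase are controlled by E2F factors, with the retinoblastoma protein holding E2F in check until a cell commits to divide. Genes of mitosis are silenced in quiescent cells by the DREAM complex, which contains E2F4 or E2F5 and binds through a CHR element, and are later driven by MYBL2 and FOXM1, often together with NF-Y on the CCAAT box. Supporting cells of the neonatal cochlea have left the cell cycle and express the inhibitor Cdkn1b, and those with Lgr5 keep a limited ability to divide.

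The 4 deposited peak lists held 14203 and 11545 peaks for the neomycin libraries and 15938 and 10520 for the untreated libraries. Their shortest peaks were 48 and 110 bp long in the neomycin lists and 187 and 234 bp long in the untreated lists, so a short peak could be present only in a neomycin list. Sequencing depth cannot be read from these lists. The deposited names of both untreated lists say H3K4me2, while the labels give the same H3K4me3 antibody for all 4 libraries. Of 10 markers of supporting and progenitor cells, 9 were marked in all 4 libraries, Lgr5 among them, and Sox2 lacked a peak in neomycin replicate 1 alone. Of 6 hair cell markers, the neomycin libraries marked 1 and 0 and the untreated libraries 3 and 1; Atoh1 had peaks in the untreated libraries alone. Of 5 mesenchyme markers, 0 were marked in both neomycin libraries, against 3 and 4 in the untreated libraries, and 4 blood cell genes had no peak in any. The part of these cells in the results below was not tested.

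The promoters that carry the group differences, those marked throughout and 1 that was never marked are printed here, 250 bases before to 50 bases after the start, from RefSeq on build GRCm38.p6, 5′ to 3′ on the gene's strand. Capitals mark matches to the E2F element (TTTCCCGC, TTTGGCGC or TTTCGCGC), the CHR element (TTTGAA or TTCGAA) or the CCAAT box (CCAAT), each searched on both strands. Such a match is a description of the letters and not a binding site. Top2a and Tpx2 were the mitosis genes marked in the neomycin libraries alone, and the Top2a promoter is shown first.
Top2a (chr11:99024140-99024439, minus strand): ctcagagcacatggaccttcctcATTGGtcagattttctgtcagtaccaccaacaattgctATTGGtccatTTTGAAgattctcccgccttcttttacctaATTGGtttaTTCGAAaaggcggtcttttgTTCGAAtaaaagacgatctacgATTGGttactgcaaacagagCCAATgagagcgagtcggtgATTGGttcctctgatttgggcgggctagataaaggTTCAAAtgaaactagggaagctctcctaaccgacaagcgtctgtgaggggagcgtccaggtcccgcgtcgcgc
Rrm1, Rrm2 and E2f6 were marked in the untreated libraries alone.
Rrm1 (chr7:102441445-102441744, plus strand): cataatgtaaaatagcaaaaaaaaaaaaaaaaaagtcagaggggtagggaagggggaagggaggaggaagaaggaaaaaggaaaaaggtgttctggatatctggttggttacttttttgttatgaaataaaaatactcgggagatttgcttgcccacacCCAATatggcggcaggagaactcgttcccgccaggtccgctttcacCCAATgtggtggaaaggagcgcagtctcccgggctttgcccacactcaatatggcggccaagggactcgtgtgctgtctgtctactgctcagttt
Rrm2 (chr12:24708004-24708303, plus strand): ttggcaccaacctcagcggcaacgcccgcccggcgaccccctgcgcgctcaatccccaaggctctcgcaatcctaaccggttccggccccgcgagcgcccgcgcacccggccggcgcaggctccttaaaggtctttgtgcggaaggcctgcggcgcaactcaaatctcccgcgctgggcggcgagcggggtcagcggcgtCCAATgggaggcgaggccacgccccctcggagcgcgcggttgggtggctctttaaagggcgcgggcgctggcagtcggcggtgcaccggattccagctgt
E2f6 (chr12:16810715-16811014, plus strand): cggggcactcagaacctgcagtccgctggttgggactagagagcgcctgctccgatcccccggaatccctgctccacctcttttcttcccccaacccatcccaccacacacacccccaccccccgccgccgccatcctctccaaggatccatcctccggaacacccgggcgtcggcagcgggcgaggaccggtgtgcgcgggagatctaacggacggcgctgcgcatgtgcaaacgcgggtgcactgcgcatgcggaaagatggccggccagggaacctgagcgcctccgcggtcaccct
Cdc25a, Hjurp, Kif11 and E2f3 were marked in all 4 libraries, E2f3 having 2 annotated starts 1672 bp apart.
Cdc25a (chr9:109875329-109875628, plus strand): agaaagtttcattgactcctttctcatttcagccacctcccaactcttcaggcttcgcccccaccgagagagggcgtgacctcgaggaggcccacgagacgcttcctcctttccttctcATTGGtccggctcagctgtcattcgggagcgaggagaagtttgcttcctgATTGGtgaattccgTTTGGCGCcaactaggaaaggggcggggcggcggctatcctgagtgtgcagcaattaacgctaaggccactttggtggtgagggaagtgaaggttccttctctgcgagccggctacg
Hjurp (chr1:88277530-88277829, minus strand): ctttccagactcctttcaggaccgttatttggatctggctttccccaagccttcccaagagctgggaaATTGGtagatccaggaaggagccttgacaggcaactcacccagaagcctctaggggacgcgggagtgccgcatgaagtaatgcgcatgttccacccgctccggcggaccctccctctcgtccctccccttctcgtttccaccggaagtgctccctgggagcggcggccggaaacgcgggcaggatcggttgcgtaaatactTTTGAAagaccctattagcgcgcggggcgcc
Kif11 (chr19:37376132-37376431, plus strand): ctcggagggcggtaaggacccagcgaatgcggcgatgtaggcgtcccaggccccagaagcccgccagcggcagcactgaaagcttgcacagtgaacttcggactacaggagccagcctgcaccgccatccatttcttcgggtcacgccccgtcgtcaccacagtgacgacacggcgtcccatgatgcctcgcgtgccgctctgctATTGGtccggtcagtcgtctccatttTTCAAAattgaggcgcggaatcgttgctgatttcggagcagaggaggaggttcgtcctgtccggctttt
E2f3 upstream start (chr13:29986014-29986313, minus strand): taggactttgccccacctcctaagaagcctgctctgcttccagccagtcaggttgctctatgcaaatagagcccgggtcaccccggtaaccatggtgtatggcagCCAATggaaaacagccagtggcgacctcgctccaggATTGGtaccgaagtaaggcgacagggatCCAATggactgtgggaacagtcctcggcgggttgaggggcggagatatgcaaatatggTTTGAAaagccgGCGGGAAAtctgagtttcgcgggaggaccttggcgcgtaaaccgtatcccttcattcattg
E2f3 downstream start (chr13:29984342-29984641, minus strand): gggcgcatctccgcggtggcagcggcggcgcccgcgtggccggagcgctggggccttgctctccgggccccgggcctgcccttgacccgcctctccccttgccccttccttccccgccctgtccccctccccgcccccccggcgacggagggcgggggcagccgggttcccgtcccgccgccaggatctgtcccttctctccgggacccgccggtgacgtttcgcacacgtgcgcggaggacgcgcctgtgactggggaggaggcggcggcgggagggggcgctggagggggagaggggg
Ccnb2 was marked in no library.
Ccnb2 (chr9:70421505-70421804, minus strand): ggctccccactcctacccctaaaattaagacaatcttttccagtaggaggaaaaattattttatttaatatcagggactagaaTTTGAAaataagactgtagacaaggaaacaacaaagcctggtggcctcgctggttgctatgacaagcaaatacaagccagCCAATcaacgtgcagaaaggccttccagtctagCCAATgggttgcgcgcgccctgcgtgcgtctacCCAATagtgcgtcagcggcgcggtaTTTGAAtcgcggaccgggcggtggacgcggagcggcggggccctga

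Most of the cell cycle genes carried H3K4me3 in some library, but few did in every one. At least 1 library marked 43 of the 46 genes, or 93.5%, against 55% of all protein-coding genes. Of all genes with CpG-rich promoters, defined below, at least 1 library marked 90.1%. All 4 libraries marked 4 of the 46 genes, or 8.7%, against 16.6% of all protein-coding genes. The neomycin libraries marked 22 and 24 of the 46 genes and the untreated libraries 36 and 18. Over all protein-coding genes the shares were 34.8% and 33.6% in the neomycin libraries, against 47% and 36.3% in the untreated libraries. In both comparisons untreated replicate 1 stood highest, and for the cell cycle genes both neomycin libraries lay between the untreated ones, so the groups overlapped. With 2 libraries per group, the smallest p that relabelling allows is 1 in 3, and no test was made on these counts. Between these groups, fewer cells carrying the mark and less mark per cell cannot be told apart.

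**Figure D1:**
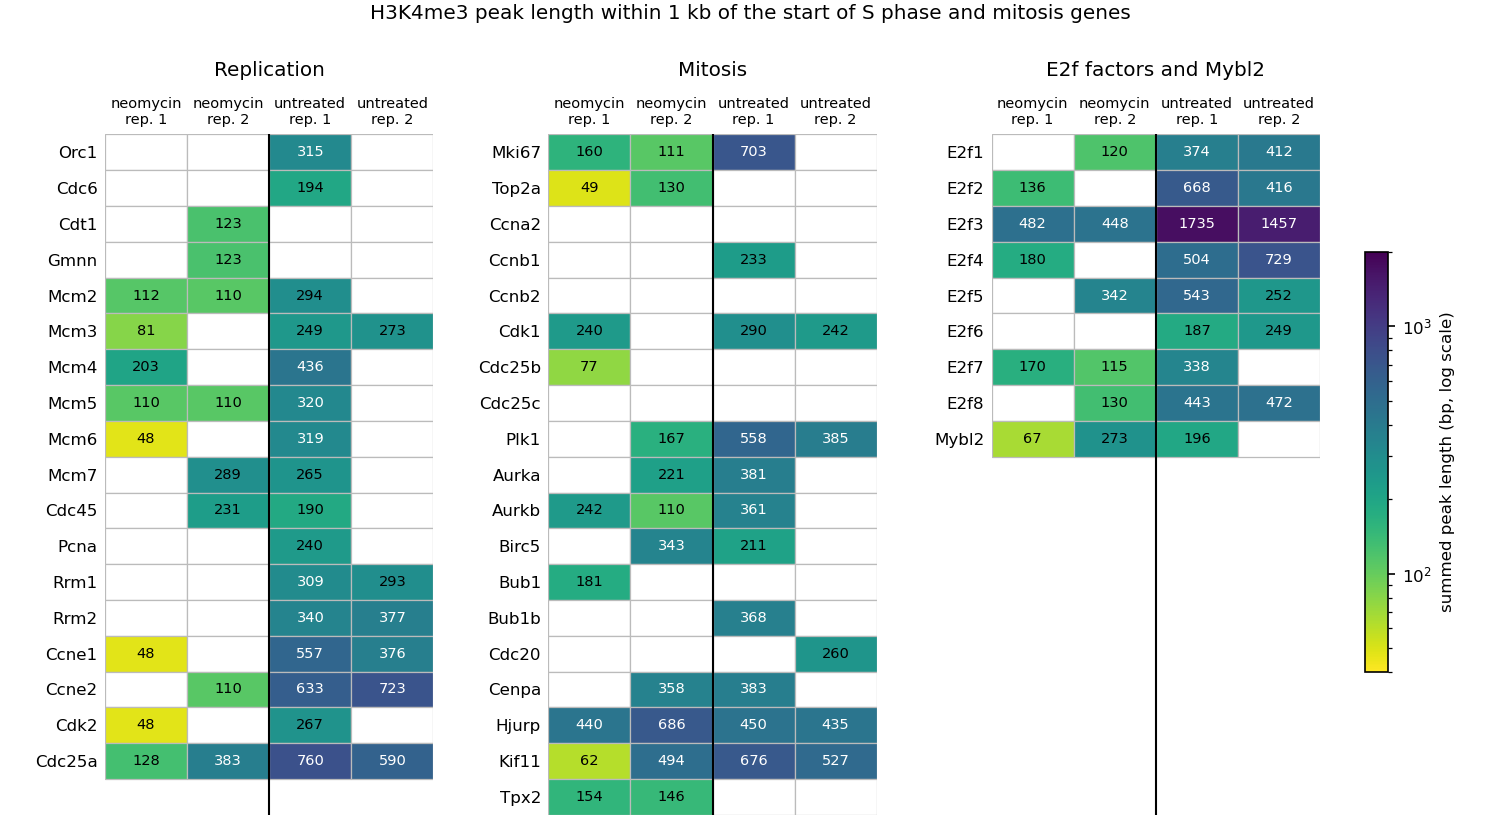
Summed length in bp (colour on a log scale, number in the cell) of the H3K4me3 peaks within 1 kb of the start of each of the 46 genes, with 1 column per library and empty cells where no peak was called. Filled cells number 22 and 24 in the neomycin columns and 36 and 18 in the untreated columns, and only 4 rows are filled throughout.

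The 11 origin licensing and initiation genes form, load, activate or restrain the complex that opens DNA at replication origins. The neomycin libraries marked 5 and 6 of them and the untreated libraries 9 and 1. Mcm2, Mcm5 and Mcm3, subunits of the MCM helicase, were each marked in 3 libraries. Mcm2 and Mcm5 had peaks in both neomycin libraries and in untreated replicate 1, and Mcm3 in neomycin replicate 1 and both untreated libraries. Their summed peak lengths ran from 81 to 112 bp in the neomycin libraries that marked them and from 249 to 320 bp in the untreated libraries that did. Mcm4 and Mcm6 were marked in neomycin replicate 1 and untreated replicate 1, and Mcm7 and Cdc45, the helicase cofactor, in neomycin replicate 2 and untreated replicate 1. Orc1, a subunit of the origin recognition complex, and Cdc6, which loads the helicase with it, were marked in untreated replicate 1 alone. Cdt1, the other loading factor, and Gmnn, which encodes the Cdt1 inhibitor geminin, were marked in neomycin replicate 2 alone. None of the 11 was marked in all 4 libraries, and Mcm3 was the only one that untreated replicate 2 marked.

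The genes for nucleotide supply had peaks only in untreated libraries. Rrm1 and Rrm2 encode the large and small subunits of ribonucleotide reductase, which makes deoxynucleotides for DNA synthesis. Rrm1 had 0 bp of peak in both neomycin libraries, against 309 and 293 bp in the untreated libraries. Rrm2 had 0 bp of peak in both neomycin libraries, against 340 and 377 bp in the untreated libraries. The 2 groups therefore did not overlap for either gene. The nearest neomycin peaks lay 123.41 and 123.59 kb from the start of Rrm1 and 56.747 and 27.382 kb from that of Rrm2. The untreated Rrm2 peaks ranked at the 90.8 and 74.4 percentiles of their own lists by the caller's q, which is the authors' value and was used only to rank peaks within a list. The Rrm1 peaks ranked at the 29.2 and 61.5 percentiles. Pcna, the sliding clamp of DNA polymerase, was marked in untreated replicate 1 alone, with 240 bp.

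Among the 4 genes of the S phase kinase, Cdc25a was marked in every library. Its product is the phosphatase that activates CDK2. The summed peak length at Cdc25a was 128 and 383 bp in the neomycin libraries and 760 and 590 bp in the untreated libraries. Both untreated values lay above both neomycin values before allowance for the longer peaks of the untreated lists. Ccne1 and Ccne2, the E cyclins, were marked in both untreated libraries and in 1 neomycin library each, replicate 1 for Ccne1 and replicate 2 for Ccne2. Cdk2, their partner, was marked in neomycin replicate 1 and untreated replicate 1.

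Of the 8 genes for entry into mitosis, the neomycin libraries marked 2 each and the untreated libraries 4 and 2. Cdk1, the mitotic kinase, was marked in neomycin replicate 1, with 240 bp, and in both untreated libraries, with 290 and 242 bp. Plk1, the polo-like kinase, was marked in neomycin replicate 2, with 167 bp, and in both untreated libraries, with 558 and 385 bp. Aurka, the spindle pole kinase, was marked in neomycin replicate 2 and untreated replicate 1. Ccnb1, the main mitotic cyclin, was marked in untreated replicate 1 alone and Cdc25b, a CDK1 phosphatase, in neomycin replicate 1 alone.

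The other 3 of these 8 genes, Ccna2, Ccnb2 and Cdc25c, had no peak in their windows in any library. They encode cyclin A2, cyclin B2 and a phosphatase that activates CDK1. The nearest peaks to the Ccnb2 start, in the promoter printed above, lay 120.86 and 81.55 kb away in the neomycin libraries and 81.557 and 81.526 kb away in the untreated libraries. For Cdc25c they lay 7.637 and 7.559 kb from the upper gene end in the neomycin libraries and 8.198 and 8.11 kb in the untreated libraries. For Ccna2 the distances from the upper gene end were 39.9 and 1.091 kb in the neomycin libraries and 1.156 and 1.099 kb in the untreated libraries. In 3 of 4 libraries a Ccna2 peak thus lay just outside the 1 kb window of that end. Ccna2 and Cdc25c are among the 9 genes, given below, whose start was placed by the gene ends.

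The 11 genes of chromosome structure and the spindle were marked 7 and 8 times in the neomycin libraries and 7 and 3 times in the untreated libraries. Top2a encodes topoisomerase II alpha, which untangles sister chromatids. It had 49 and 130 bp of peak in the neomycin libraries, against 0 bp in both untreated libraries. The Top2a peaks lay 11 to 59 bp past the start in neomycin replicate 1 and 225 to 354 bp past it in replicate 2. They shared no base, so no position was marked in both replicates. Tpx2 encodes the spindle assembly factor that activates Aurora A. It had 154 and 146 bp of peak in the neomycin libraries, against 0 bp in both untreated libraries. The Tpx2 peaks overlapped each other, at 72 to 225 and 61 to 206 bp from the gene end used. For both genes the groups did not overlap, and every one of these 4 peaks was shorter than the shortest peak of either untreated list. Within their own lists the Top2a peaks ranked at the 74.3 and 98.2 percentiles and the Tpx2 peaks at the 86.5 and 85.7 percentiles. The nearest untreated peaks lay 16.743 and 16.9 kb from the Top2a start and 16.72 and 95.03 kb from the Tpx2 end used as its start.

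Hjurp and Kif11 were the mitosis genes marked in all 4 libraries. Hjurp encodes the chaperone that places the centromeric histone CENP-A. Its summed peak length was 440 and 686 bp in the neomycin libraries and 450 and 435 bp in the untreated libraries. It was the only one of the 4 genes marked throughout whose uncorrected length was not greater in the untreated libraries. Kif11, the motor that separates the spindle poles, had 62 and 494 bp in the neomycin libraries and 676 and 527 bp in the untreated libraries. The remaining spindle and chromosome genes were marked in fewer libraries. Mki67, the perichromosomal proliferation marker, and Aurkb, the kinase of the chromosomal passenger complex, were marked in both neomycin libraries and untreated replicate 1. Birc5, survivin of the same complex, and Cenpa, the centromeric histone itself, were marked in neomycin replicate 2 and untreated replicate 1. The spindle checkpoint kinase gene Bub1 was marked in neomycin replicate 1 alone and its relative Bub1b in untreated replicate 1 alone. Cdc20, the activator of the anaphase-promoting complex, was marked in untreated replicate 2 alone.

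Of the replication, mitosis and transcription factor classes, the last had the largest marked share in every library. Of its 9 genes, 5 and 6 carried peaks with neomycin (55.6% and 66.7%), against 9 and 7 in untreated cells (100% and 77.8%). Over all protein-coding genes the shares were 34.8% and 33.6% with neomycin and 47% and 36.3% in untreated cells. Part of the mitosis class stood higher with neomycin, where 7 and 8 of the 11 chromosome and spindle genes had peaks. E2f6 encodes a repressor that acts with Polycomb proteins. It had 0 bp of peak in both neomycin libraries, against 187 and 249 bp in the untreated libraries, so the groups did not overlap. Those untreated peaks ranked low within their lists, at the 30.2 and 4.09 percentiles, and lay 0.306 and 0.313 kb past the start. The nearest neomycin peaks to E2f6 lay 83.485 and 83.569 kb away.

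E2f3, an activating E2F, had the longest peaks of the 46 genes by the mean over the 4 libraries, though in neomycin replicate 2 Hjurp and Kif11 had longer ones. Its summed peak length was 482 and 448 bp in the neomycin libraries and 1735 and 1457 bp in the untreated libraries. These lengths were measured at the downstream start. At the upstream start the lengths were 303 and 0 bp in the neomycin libraries and 633 and 449 bp in the untreated libraries, so that start was not marked in neomycin replicate 2. The other 7 factors were each marked in 3 libraries. E2f2, an activator, and E2f4, a repressor of the DREAM complex, lacked a peak in neomycin replicate 2. E2f1, an activator, E2f5, the other DREAM factor, and E2f8, an atypical repressor, lacked one in neomycin replicate 1. E2f7, the other atypical repressor, and Mybl2, the activator of G2 and mitotic genes, lacked one in untreated replicate 2.

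**Figure D2:**
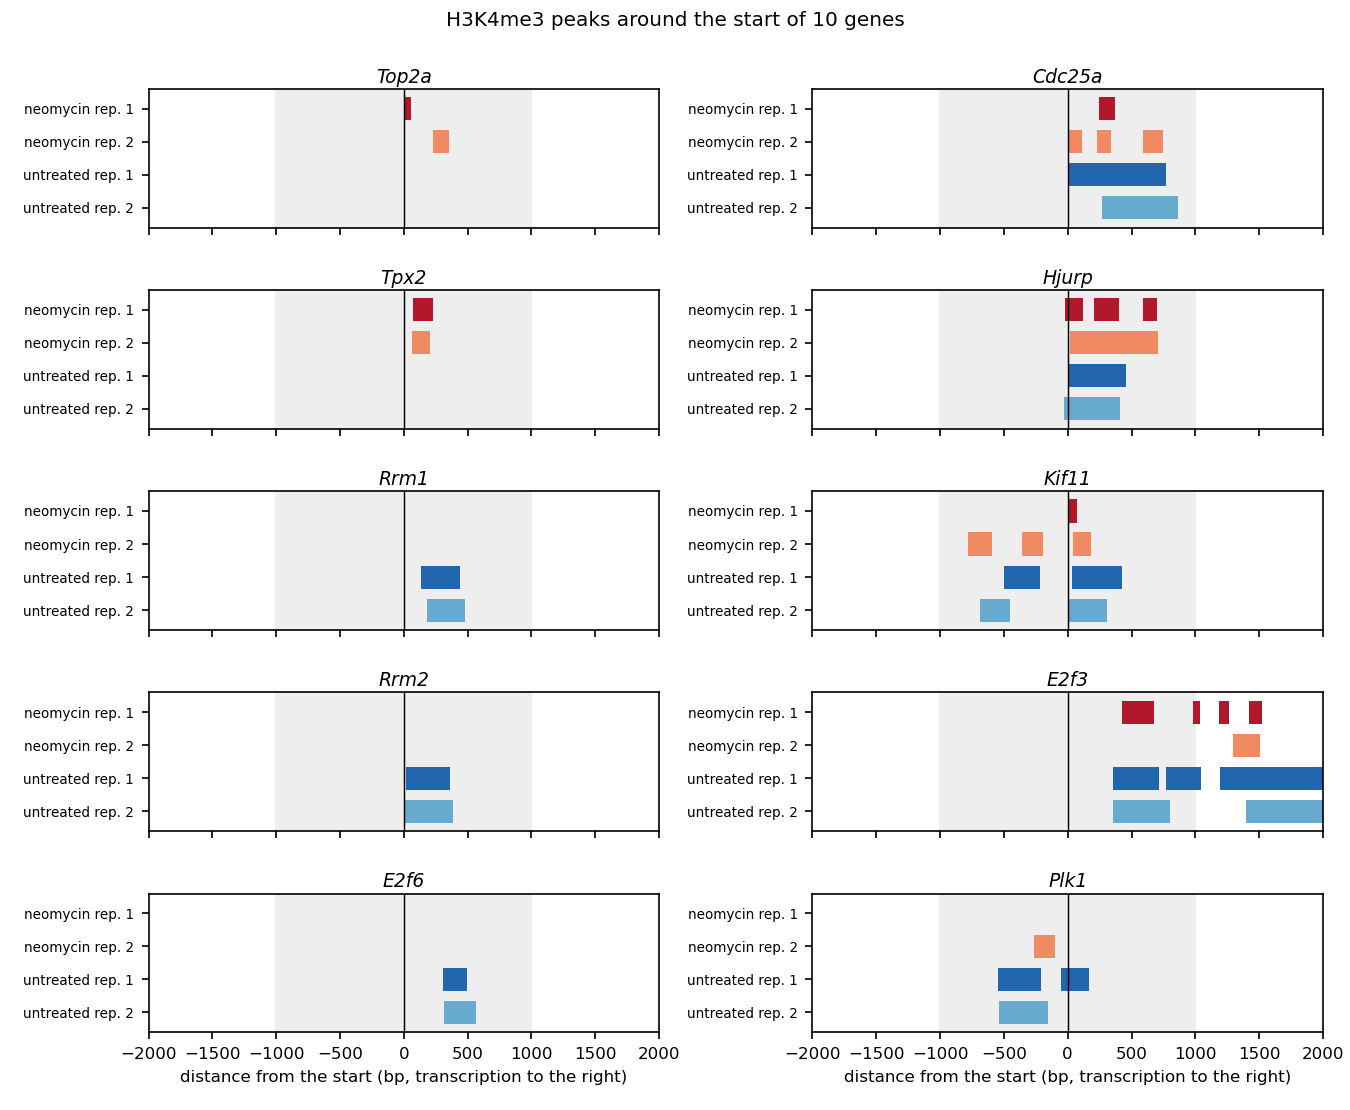
Position in bp of every H3K4me3 peak near the start (x axis, transcription to the right, window of 1 kb either side in grey) at 10 genes, with 1 row of bars per library; E2f3 is drawn from its upstream start and Tpx2 from its lower gene end. Top2a and Tpx2 have bars in the neomycin rows alone, Rrm1, Rrm2 and E2f6 in the untreated rows alone, and Plk1 lacks a bar in neomycin replicate 1.

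Few promoters had peaks throughout 1 group and nowhere in the other. Neomycin-only marking held for 2 of the 46 genes, or 4.35%, against 1.41% of all protein-coding genes, and untreated-only marking for 3, or 6.52%, against 4.66%. Of the protein-coding genes marked in at least 1 library the shares were 2.56% for neomycin only and 8.47% for untreated only. The counts also rested on single libraries: without untreated replicate 1 the neomycin-only count was 8 genes, when 5.92% of all protein-coding genes were neomycin only. Without neomycin replicate 1 or replicate 2 the untreated-only count was 8 in either case, when 11.1% and 10.3% of all protein-coding genes were untreated only. When peaks had to cover 200 bp or more, 0 genes were neomycin only and 10 (21.7%) were untreated only, among them Rrm1, Rrm2 and Plk1. Over all protein-coding genes the shares were then 0.0731% neomycin only and 17.9% untreated only. Top2a, Tpx2 and E2f6 lost their call in that setting. At a −log10 q of 10 or more, E2f3 was the only gene marked in 1 group alone, with peaks in both untreated libraries, when 6.65% of all protein-coding genes were untreated only, and no gene of the 46 had a peak in all 4 (0 genes).

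Replication and mitosis genes differed in the untreated libraries more than in the neomycin libraries, and mostly through 1 library. Of 36 pairs of a replication gene and a library in each group, 16 (44.4%) were marked with neomycin and 22 (61.1%) in untreated cells. Of 38 such pairs for mitosis genes, 19 (50%) were marked with neomycin and 16 (42.1%) in untreated cells. Over all protein-coding genes the shares were 34.2% with neomycin and 41.7% in untreated cells. By library, the counts for the 18 replication genes were 8 and 8 with neomycin and 16 and 6 in untreated cells, and for the 19 mitosis genes they were 9 and 10 with neomycin and 11 and 5 in untreated cells. Untreated replicate 1 thus marked 88.9% of replication and 57.9% of mitosis genes, and untreated replicate 2 marked 33.3% and 26.3%. In untreated cells the classes lay closer with annotated starts only, at 19 of 30 pairs for replication and 15 of 30 for mitosis genes, and closer again with CpG-rich promoters only, at 15 of 26 and 14 of 28. For both classes the gap between the untreated replicates was larger than the gap between the groups' totals. All 3 genes never marked were mitosis genes, as were both neomycin-only genes. Of the 3 untreated-only genes Rrm1 and Rrm2 were replication genes. No annotated start was available for Ccna2 and Cdc25c, never marked, and for Tpx2, neomycin only. Among genes with an annotated start, only Ccnb2 was never marked. With the gene body counted, Ccna2 had a peak in neomycin replicate 2 and both untreated libraries. The difference between the classes was not tested.

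Further genes of the same pathways gave a comparison outside the 46. Of 44 other replication genes, the neomycin libraries marked 28 and 29 and the untreated libraries 32 and 22, and 14 (31.8%) had a peak in all 4. Of 44 other mitosis genes, the neomycin libraries marked 25 and 25 and the untreated libraries 34 and 21, and 8 (18.2%) had a peak in all 4. All protein-coding genes had peaks in all 4 in 16.6%. Neomycin-only marking held for 2.27% of the other replication and 0% of the other mitosis genes, against 1.41% of all protein-coding genes. Untreated-only marking held for 0% and 4.55%, against 4.66%, so these shares were close to those of all genes or below them. Pold1, the catalytic subunit of DNA polymerase delta, was the only neomycin-only gene of these 88, with 95 and 110 bp in the neomycin libraries, against 0 bp in both untreated libraries. Knl1, a kinetochore scaffold, had 0 bp in both neomycin libraries, against 221 and 412 bp in the untreated libraries. Ect2, the exchange factor that starts cytokinesis, had 0 bp in both neomycin libraries, against 222 and 234 bp in the untreated libraries. The Pold1 peaks, like those of Top2a and Tpx2, were shorter than any untreated peak.

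**Figure D3:**
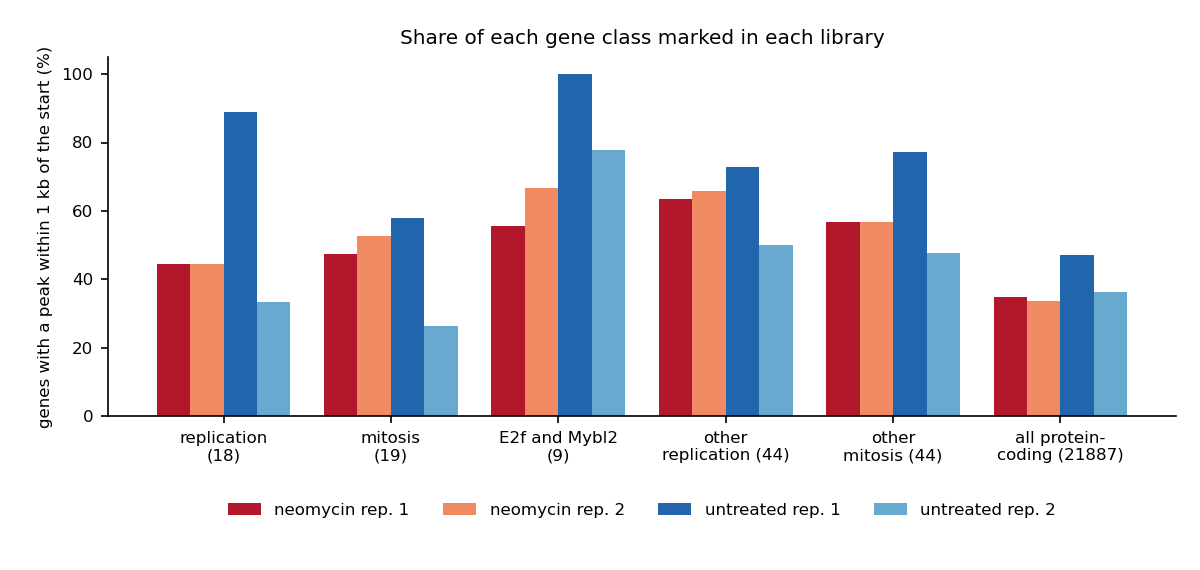
Percentage of the genes of each class (number of genes in brackets) with a peak within 1 kb of the start, as 1 bar per library. In every class untreated replicate 1 is the highest bar and, except for the E2f and Mybl2 genes and all protein-coding genes, untreated replicate 2 is the lowest.

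Peak length was compared at the 3638 promoters marked in all 4 libraries. The log2 summed length of each promoter, centred on its library's median, was compared between groups with limma. Library medians were 125 and 236 bp with neomycin and 570 and 468 bp in untreated cells. No promoter passed a Benjamini-Hochberg adjusted p of 0.05 in limma (0% of 3638), 353 had an unadjusted p under 0.05, and the smallest adjusted p was 0.222. Of the 46 genes, 4 entered this comparison, since each of the others had no peak in at least 1 library. Hjurp had the largest difference of the 4. Its centred log2 length was 1.82 and 1.54 in the neomycin libraries, against -0.34 and -0.11 in the untreated libraries, so the centred groups did not overlap, with a log2 difference of 1.90 (SE 0.60). That difference did not pass the test, with an adjusted p of 0.253 in limma. It ran between 1.77 and 2.06 in the fits that left out 1 library. Without centring the difference was 0.31 (SE 0.73, adjusted p 0.694 in limma), and the lengths in bp given above overlap, so both the size of the difference and the separation rest on centring. The log2 differences of Cdc25a, Kif11 and E2f3 were -0.01 (SE 0.61), -0.18 (SE 0.66) and -0.19 (SE 0.62), and their adjusted p lay between 0.961 and 0.995 in limma. The median of the 4 genes was -0.09, beside -0.01 over all 3638 promoters.

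The calls in that comparison changed when either neomycin library was left out. The neomycin group is then 1 library, assumed to vary like the 2 untreated libraries that alone give the spread. Without neomycin replicate 2, 423 promoters passed the limma test, with Hjurp at a log2 difference of 2.06 (adjusted p 0.0177) and Cdk1, which then entered, at 1.92 (adjusted p 0.0257). The range for Hjurp over all alternatives, in limma, was an adjusted p of 0.0177 to 0.999. Without neomycin replicate 1, 140 promoters passed and none of the 46 genes was among them. Without either untreated library, 0 promoters passed in limma, with 98 and 167 at an unadjusted p under 0.05, the spread then coming from the neomycin libraries alone. Where lengths were not centred, 1139 promoters passed, every one shorter with neomycin, and none of the 46 genes was among those either.

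The summit of the strongest peak at each marked gene lay mostly downstream of the start, with neomycin replicate 2 as the exception. Positions were taken from the nearest start at the 37 genes with an annotated start. The summit was downstream of it at 16 of 18 (88.9%) and 8 of 19 (42.1%) marked genes in the neomycin libraries. In the untreated libraries it was so at 24 of 31 (77.4%) and 13 of 15 (86.7%). Over all protein-coding genes the shares were 75.4% and 74.8% with neomycin and 80.8% and 81.3% in untreated cells. The median position of the cell cycle genes in neomycin replicate 2 was -249 bp, against 160 bp for all marked genes of that library. The 11 upstream summits belonged to Cdt1, Mcm7, Cdc45, Mki67, Plk1, Aurka, Birc5, E2f1, E2f3, E2f7 and E2f8. At some genes the gene record extends upstream of the start used. The E2f8 summit, at -359 bp, lay inside that record, as did upstream summits of E2f1 and Cdc6 in untreated libraries. The E2f3 summit was upstream only of its downstream start and lay inside the gene, past its upstream start. Its value, -249 bp, is also the median. In neomycin replicate 1 and untreated replicate 1 the E2f3 summits, at -450 and -275 bp, were likewise measured from the downstream start. Mcm7, Cdc45 and Aurka have the start of a gene on the opposite strand within 1 kb, namely Ap4m1 at 138 bp, Ufd1 at 322 bp and Cstf1 at 433 bp. Orc1 has such a neighbour too, Prpf38a at 118 bp. A peak in these windows could belong to either gene. Neighbours were sought only among genes with an annotated start, so others may have been missed.

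**Figure D4:**
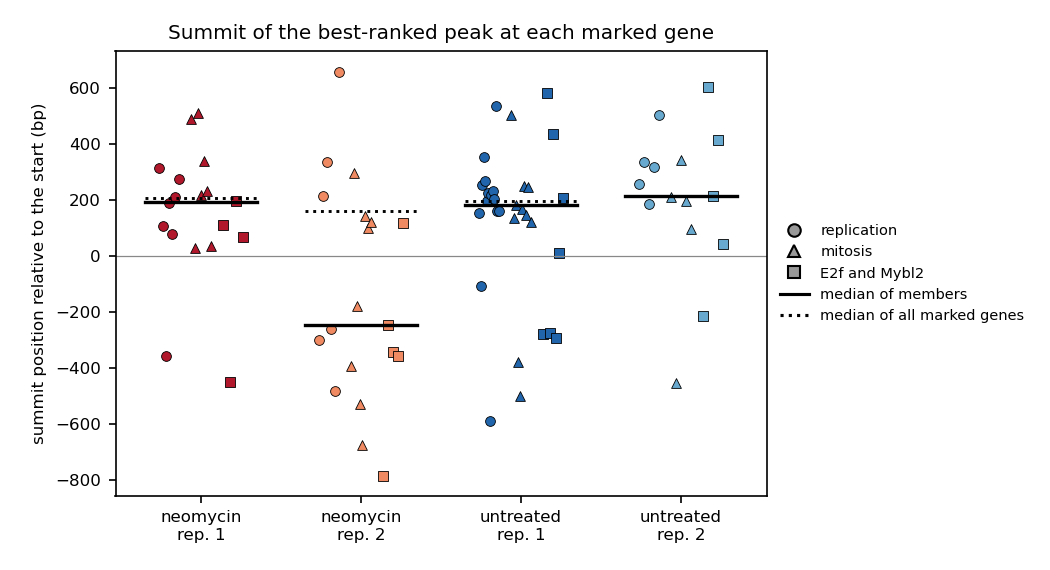
Summit position in bp relative to the nearest start (y axis, positive downstream of it) of the best-ranked peak at each marked gene. Only genes with an annotated start are shown, with 1 column per library and symbols for the 3 classes. The solid median of the cell cycle genes lies at -249 bp in neomycin replicate 2 and between 180 and 215 bp in the other libraries, and the dotted median of all marked genes between 160 and 215 bp throughout.

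The promoters of the 2 classes held different elements. RefSeq promoter windows were found for 37 of the 46 genes, 15 replication genes, 15 mitosis genes and 7 transcription factors, and a gene with several windows was counted when any held a match. An E2F element was present in 9 replication genes (60%) and 1 mitosis gene (6.67%), against 2.76% of the 17492 protein-coding genes in the table. A CHR element was present in 3 replication genes (20%) and 13 mitosis genes (86.7%), against 20.2%. A CCAAT box was present in 12 replication genes (80%) and 14 mitosis genes (93.3%), against 42.3%. The CHR element and the CCAAT box occurred together in 13 of 15 mitosis genes, against 9.24% of all genes in the table. None of these elements contains another, and TTCGAA reads the same on both strands.

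These elements were held by promoters with very different marks. The Top2a promoter, marked with neomycin alone, held 6 CCAAT boxes and 4 CHR elements, the most of either in any of the 37 genes. The Ccnb2 promoter, marked in no library, held 3 CCAAT boxes and 2 CHR elements. Hjurp and Kif11, marked throughout, held 1 of each. Rrm1 and Rrm2, marked in untreated cells alone, held 2 and 1 CCAAT boxes and neither other element, and E2f6 held none of the 3. Cdc25a held an E2F element of the form TTTGGCGC. The upstream E2f3 window held 1 E2F element, 1 CHR element and 3 CCAAT boxes, whereas the window of the downstream start, which all 4 libraries marked, held none.

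**Figure D5:**
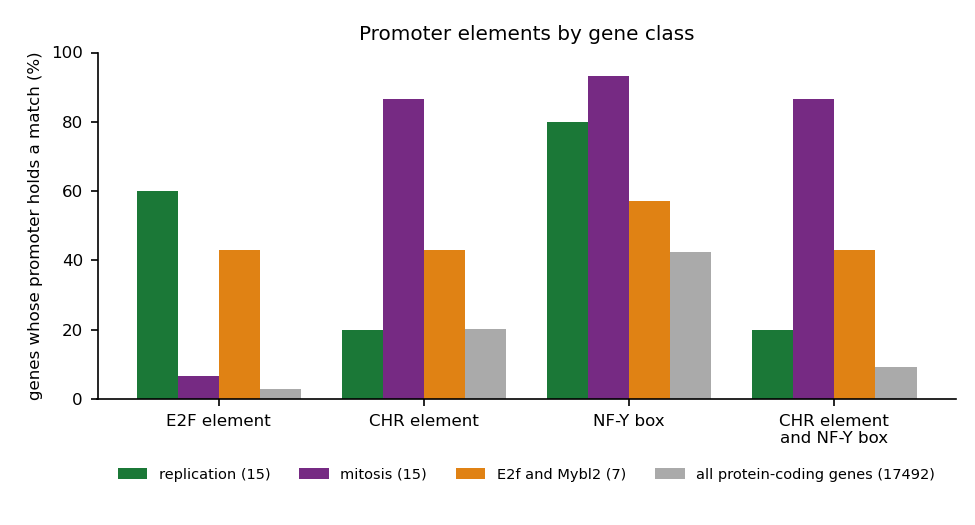
Percentage of genes whose 300-base promoter window holds a match to each element (y axis), for replication, mitosis and E2f with Mybl2 genes and for all protein-coding genes, with the number of genes in brackets and the NF-Y box standing for the CCAAT box. The CHR element reaches 86.7% in mitosis genes against 20% in replication genes, and the E2F element 60% in replication genes against 6.67% in mitosis genes.

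The promoters were also rich in CpG. The ratio of observed to expected CpG was at least 0.6 in 34 of the 37 genes (91.9%), against 50.9% of all genes in the table, a threshold chosen after seeing the data. The neomycin libraries marked 17 and 18 of these 34 and the untreated libraries 28 and 13. Of all genes with such promoters 59.5% and 57.9% carried peaks in the neomycin libraries, against 79.2% and 62.8% in the untreated libraries. At least 1 library marked 90.1% of all such genes. All 4 libraries marked 4 of the 34 (11.8%), against 30.3% of all such genes. In untreated replicate 2 the cell cycle genes thus stood below other CpG-rich promoters, 13 of 34 against 62.8%, and in untreated replicate 1 they stood close to them, 28 of 34 against 79.2%. No test was made of these differences.

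For 9 genes, Gmnn, Mcm4, Ccne2, Ccna2, Cdc25c, Aurkb, Tpx2, E2f4 and E2f5, the start was taken as a gene end. At Ccna2 and Cdc25c neither end had a peak within 1 kb, and the lower end was used. At the others the end with peaks in more libraries, or failing that more peak bases, was used, which favours a marked call. The start of Tpx2 is thus less certain than that of Top2a, the other neomycin-only gene. Tpx2 stayed neomycin only when peaks at either gene end, or in the whole gene body, were counted. Among the other 37 genes the neomycin libraries marked 18 and 19 and the untreated libraries 31 and 15. At least 1 library marked 36 of the 37, against 55.6% of all genes with an annotated start, and all 4 libraries marked 4, against 17.1%. Top2a was the 1 neomycin-only gene of the 37, against 1.48% of all such genes, and Rrm1, Rrm2 and E2f6 were the 3 untreated-only genes, against 4.53%.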

How the data were processed

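H3K4me3 ChIP-seq of 2 neomycin and 2 untreated libraries was deposited as 1 peak list per library, with positions and lengths in bp. Per the file headers, each peak also has a pileup (a signal never scaled between libraries as far as stated), −log10 p-value and −log10 q-value, and a fold enrichment. Mapping to mm10, with CASAVA 1.4, Bowtie2, MACS2 and deepTools as tools, is recorded per the submitters' processing notes. Not given in the sources used here were the tool parameters and any use of the inputs in peak calling. Depth is unknown, so no interval for counting error is given.

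Starts and strands came from the RefSeq promoter table (GRCm38.p6, the build of mm10) for 17492 of 21887 protein-coding genes. Other genes were placed at the gene end with peaks in more libraries, then more peak bases, then the lower coordinate. A promoter was marked when at least 1 bp of a peak lay within 1 kb of a start. The pileup and fold were not compared between libraries, and the q-value ranked peaks within a list. Lengths were compared with limma 3.58.1 in R 4.3.3 (log2 scale, centred on library medians, no replicate block, adjusted p threshold 0.05), and everything else used Python 3.11.15, pandas 2.3.3, numpy 2.4.6 and matplotlib 3.10.9. Tested on simulated lengths at 3638 promoters for this comparison, limma called 44% of those changed by 2 log2 units and 100% of those changed by 4, with 5.26% false calls. The simulated noise was normal, with the same spread for every promoter and library, and had no shortest length. In the neomycin libraries 338 and 352 of these promoters had the shortest length found, so these rates may not hold for the real lengths.

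Members and gene lists were chosen with earlier results of these data known. Values per library are given for genes marked in 1 group only, in no library or in all 4, and for the 3 longest mean lengths; other members are named with the libraries that mark them, and values added for Pcna, Cdk1, Plk1 and the Mcm genes were chosen after they were seen. The alternatives were other windows, a stricter q, lists of equal length, at least 200 bp covered, either gene end, the gene body, other scalings of length, a replicate block and each library left out; annotated starts only and CpG-rich promoters only were added after seeing the data.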

Additional observations from a re-analysis of the deposited data

How the results depend on the processing

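The numbers of genes marked rest on the caller's threshold and on single libraries. The main counts were 4 genes in all libraries, 2 neomycin only and 3 untreated only. At a −log10 q of 10 or more, these counts were 0, 0 and 1, and the marked pairs of a gene and a library were 0 with neomycin and 9 in untreated cells for replication genes, and 1 with neomycin and 6 in untreated cells for mitosis genes. With at least 200 bp covered they were 2, 0 and 10, and the neomycin pairs 4 for replication and 8 for mitosis genes. A 0.5 kb window gave 5 untreated-only genes, adding Ccne2 and E2f1. The untreated-only share of all protein-coding genes rose as well, from 4.66% to 6.3%. Annotated starts only, and CpG-rich promoters only, each gave 1 neomycin-only gene, Top2a. With lists cut to 10520 peaks each, Top2a and Tpx2 remained neomycin only and Mcm3, Rrm2 and Ccne1 were untreated only. Of all protein-coding genes, 1.86% were then neomycin only and 5.03% untreated only. Leaving out each library in turn gave 4 to 10 genes in all remaining libraries, 2 to 8 neomycin only and 4 to 8 untreated only. Over all protein-coding genes the shares were 17.4% to 23.1% in all remaining libraries, 2.16% to 5.92% neomycin only and 5.74% to 11.1% untreated only.

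For length, leaving out each library gave 0 to 423 promoters called, 0 to 2 of the 46 genes called, and a median log2 difference of the 4 genes of -0.20 to 0.63. Lengths that were not centred gave 1139 promoters called and a median of -1.68, with a median of -1.59 over all 3638 promoters. Without neomycin replicate 1 the log2 differences of Cdc25a and Kif11 changed sign to 0.36 and 0.89, without neomycin replicate 2 that of E2f3 to 0.34, and without untreated replicate 1 that of Cdc25a to 0.02; the cause was not tested. Over the fits that left out 1 library, Cdc25a ran from -0.32 to 0.36, Kif11 from -1.20 to 0.89 and E2f3 from -0.66 to 0.34. The labels do not say that a replicate number marks a shared culture or day, and same-numbered deviations correlated at -0.0186 over 3638 promoters; with a replicate block 0 promoters were called in limma, 353 had an unadjusted p under 0.05, the smallest adjusted p was 0.0707 and that of Hjurp 0.215. The length comparison at −log10 q of at least 10 was not run, because no promoter was then marked in all 4 libraries. The short minimum lengths of the neomycin lists, the unknown depth and 2 libraries per group limit every count.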
